A study of Mus with 4 samples.

Results

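Circular RNAs (circRNAs) from 10 genes of the histone lysine methyltransferase family, Kmt2a, Kmt2c, Kmt2e, Ash1l, Nsd1, Nsd2, Nsd3, Ehmt1, Setd2 and Setd3, were examined in mouse ocular tissue. A circRNA is a closed RNA ring formed when a splice donor is joined to an acceptor that lies upstream of it, and each sequencing read that crosses this junction marks such a ring. Every circRNA whose deposited gene identifier matched one of these hosts was taken, which gave 287 of the 44073 circRNAs of the series and 10 of its 7141 host genes. Each of the 287 had exactly 1 matched host.

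The tissue came from C57BL/6J pups of 4 groups: wild type at postnatal day 12 (P12), wild type at P13, VLDLR deletion at P12 and VLDLR deletion at P13. VLDLR is the very-low-density lipoprotein receptor. All 4 groups, the wild-type controls included, had breathed 75% oxygen from day 7 to day 12, and the P13 pups had then been kept in air, so that age and the return to air cannot be told apart. Each group was 1 library. How many animals were pooled in it, whether the deletion is whole-body and how it was made are not in the labels. No library breathing room air throughout was used here.

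Histone lysine methyltransferases place methyl groups on the tails of histones, and the position decides how the mark is read. KMT2A (MLL1) and KMT2C (MLL3) are the catalytic subunits of COMPASS-type complexes that methylate H3K4 at promoters and enhancers, and KMT2E (MLL5) is a relative with a divergent catalytic domain. ASH1L and the NSD proteins methylate H3K36, SETD2 adds the trimethyl form of that mark along transcribed genes, and EHMT1 (GLP) methylates H3K9 together with EHMT2. SETD3 carries the same SET domain but is known for methylating a histidine of actin. The reads here come from circles of these genes and do not measure their linear messenger RNA or protein.

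The libraries held 662811, 759063, 299723 and 341873 junction reads (wild type at P12 and P13, then the deletion at P12 and P13; 4 values below follow this order). The deposited tables list circRNAs with at least 2 reads, so that an unlisted circRNA can hold 1 read. The wild-type libraries were sequenced in 1 run and the deletion libraries in another, with 0 runs shared, so that the run and the genotype cannot be told apart. Circles of Vldlr numbered 0 and gave no check of the labels. In bulk tissue, fewer cells of a type and less RNA per cell cannot be told apart either. Circles were listed for 15 photoreceptor markers (Cnga1 and Nrl were at 0), and their summed scaled reads were 3495, 4119, 4948 and 4952. This sum follows Sag (221, 250, 807 and 747) and Pde6a (354, 566, 776 and 865) in large part. Rpgrip1, with the most reads, overlapped between genotypes (1564, 1755, 1770 and 1550), and Rp1 alone was lower in both deletion libraries (20.1, 15.7, 3.42 and 3.04). Circles were listed for 5 lens markers (Mip and Lim2 were at 0), with sums of 315, 379, 1163 and 897. The lens sum follows Bfsp1 (248, 235, 1125 and 858), while Cryga went the other way (34.8, 108, 6.84 and 12.2) and Cryaa stayed between 27.1 and 30.8. The 4 bipolar cell markers with circles summed to 280, 283, 460 and 335 and pigment epithelium markers (5 of 7; Best1 and Ttr at 0) to 51.8, 56.0, 87.2 and 89.7. Among the bipolar markers, Trpm1 (128, 135, 265 and 183) and Lrit3 (17.8, 19.8, 42.8 and 45.6) were higher in the deletion. Prkca overlapped between genotypes, and Grm6 was lower (23.2, 14.3, 6.84 and 12.2). Muscle markers summed to 1052, 1094, 1119 and 1342, erythroid markers to 40.2, 53.2, 54.7 and 76.0 and microglial markers to 0, 0, 5.13 and 4.56. The muscle sum follows Dmd (1006, 1024, 1081 and 1265). Ryr1 (32.5, 66.2, 30.8 and 56.3) and Ttn (11.6, 3.41, 6.84 and 19.8) overlapped between genotypes. The erythroid sum follows Tfrc (37.9, 47.8, 54.7 and 76.0). Endothelial and Müller glia sums reached at most 52.6 in any library, with overlapping genotypes. Photoreceptor, lens, bipolar, pigment epithelium, muscle and erythroid sums were higher in both deletion libraries than in both wild-type ones. The microglial sums rest on 1 of 4 markers and lie near the listing floor, so that no difference is read from them. Single markers within a list differed in direction, and the part of these cell types in the results below was not tested.

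Between 115 and 210 of the 287 circRNAs were listed per library (195, 210, 115 and 136). At the depth of the shallowest library, 146, 148, 115 and 129 would be expected to keep 2 reads. The set held 5284, 5750, 2230 and 2507 junction reads, which is 0.797%, 0.758%, 0.744% and 0.733% of each library. Its share was thus a little higher in the wild-type libraries, with wild type P13 and deletion P12 close together.

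Most of the circles were exonic: 270 (94.1%) had the exon class and 17 (5.92%) the intron class, against 86.5% and 8.01% of all circRNAs. Exon-class circles spanned a median of 11544 bases of genome, against 10384 bases over all. There were 76 circles (26.5%) listed in all 4 libraries, and these carried 88.3% of the reads of the set, while 118 (41.1%) were listed in 1 library. Over all circRNAs the corresponding shares were 25.2%, 87.0% and 41.9%. In breadth of detection the set was thus close to the series as a whole. The 10 most abundant circles held 56.6% of its reads.

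The hosts differed widely in the reads they contributed. Reads were set on 1 scale by dividing them by relative library sizes from edgeR's TMM method (1.29, 1.47, 0.585 and 0.657), and "scaled reads" below means this. A back-spliced junction is read at 1 point of a circle, so that these sums need no length correction, but a host with more kinds of circle has more junctions. Nsd2 led with 1066, 981, 908 and 879 scaled reads, followed by Ehmt1 with 853, 784, 754 and 694 and Ash1l with 688, 747, 667 and 722. Nsd2 lay above the other hosts in every library, with exact Poisson 95% intervals that did not overlap theirs. The intervals of Ehmt1 and Ash1l overlapped in every library but wild type P12.

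Kmt2c (469, 411, 617 and 510 scaled reads) and Nsd1 (422, 439, 450 and 538) came next. Their intervals overlapped in 3 libraries, and in deletion P12 Kmt2c was higher. Nsd3 (206, 180, 87.2 and 116), Setd2 (178, 160, 135 and 148) and Kmt2a (153, 134, 135 and 138) formed a lower step. In wild type, Nsd3 was the highest of these 3 hosts, and in both deletion libraries it was the lowest. Kmt2e (48.0, 76.4, 49.6 and 56.3) and Setd3 (5.42, 12.3, 10.3 and 12.2) were lowest. By reads over all libraries, Nsd2 ranked 62, Ehmt1 89 and Ash1l 102 among the 7141 hosts, and Setd3 ranked 3678.

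**Figure D1:**
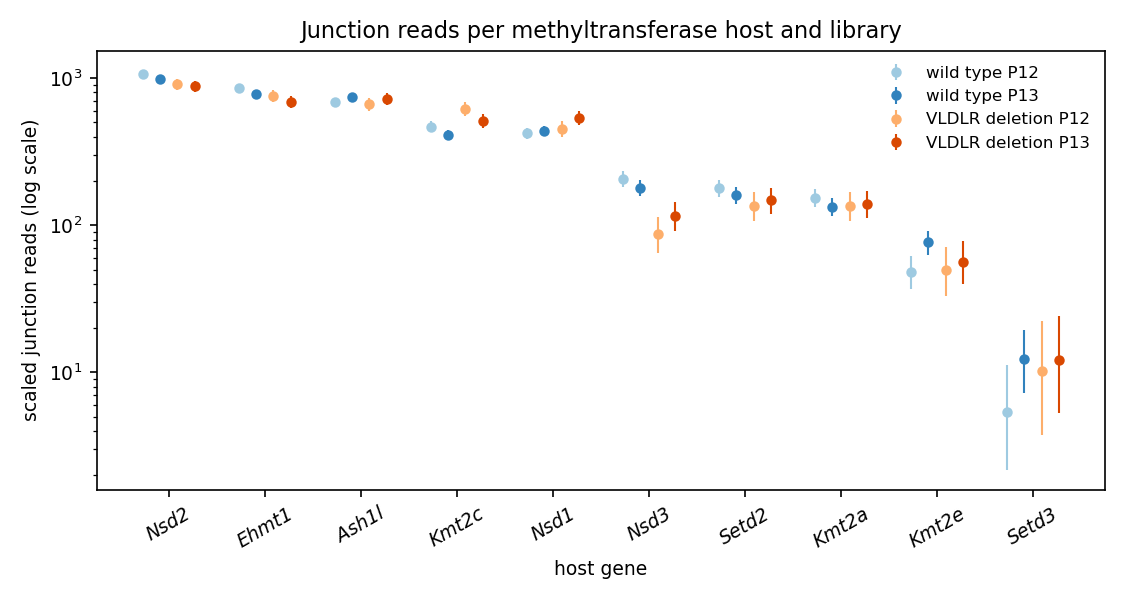
Scaled junction reads per host (log axis) in each of the 4 libraries, with exact Poisson 95% intervals that cover counting error only. Nsd2 lies between 879 and 1066 in every library, Nsd3 falls from 206 and 180 in wild type to 87.2 and 116 in the deletion, and Setd3 stays at or below 12.3.

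The number of kinds of circle did not follow the number of reads. Ehmt1 gave 64 circles, which ranked it 11 among all hosts, from 17 acceptors and 16 donors, and its leading circle held 23.2% of its reads. Nsd2 gave 12 circles, and 8 of them used the acceptor at chromosome 5 position 33843112, which carried 99.0% of the reads of Nsd2. One Nsd2 circle (33843112 to 33846267) alone held 80.4% of them. Nsd1 gave 48 circles, Ash1l 40, Kmt2c 37, Setd2 27, Nsd3 25, Kmt2e 23, Kmt2a 10 and Setd3 1. Ash1l and Kmt2a also drew on few sites. The Ash1l acceptor at chromosome 3 position 89001773 held 51.5% of its reads, and the Kmt2a donor at chromosome 9 position 44828784 held 56.2%. Coordinates are those of the deposited tables, with a genome build not given in the sources used here.

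Which circles differed between the genotypes was asked with edgeR's quasi-likelihood test, with genotype and day as additive terms over the 4 libraries. Testing required 10 or more reads in 2 or more libraries, and p-values were adjusted over all 8785 circRNAs tested. Of the 287, 67 were tested, and 22 of these reached 10 reads in wild type only. Of the 67, 4 were higher in the deletion and 5 lower (5.97% and 7.46%), beside 5.03% higher and 3.59% lower over all circRNAs tested. Of the 9, 5 are circles of Kmt2a and Ash1l, whose opposing isoforms were among the reasons to examine these hosts, and 3 of the 5 lower ones reached 10 reads in wild type only. Nothing about the set is therefore read from these counts, and the p-values of Kmt2a and Ash1l circles are given as a description. The median log2 difference, deletion against wild type, was -0.22 over the 67 and -0.08 over all. DESeq2 called 2 higher and 1 lower, beside 2.44% and 1.4% over all. The test has 1 residual degree of freedom, with 1 library per group. Its p-values rest on the spread left after the genotype and day terms, combined with the spread over all circRNAs tested. They measure no spread between replicates of a group.

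These directions depend on the scaling. The authors' own scale, SRPBM, divides the reads by a constant per library of 9.14, 9.10, 10.6 and 12.1 reads, and it leaves the lower yield of junction reads in the deletion libraries in the values. It moved the median log2 difference of all circRNAs by -1.45. On it 1 circle of the 67 was higher and 41 were lower. All 9 host sums that could be tested were lower on it, with log2 differences between -2.39 and -1.11. The leading circles of Ash1l, Ehmt1, Kmt2a, Kmt2e and Nsd2, which did not pass on the TMM scale, were lower too, between -2.04 and -1.30. All differences below are relative to the TMM scale.

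**Figure D2:**
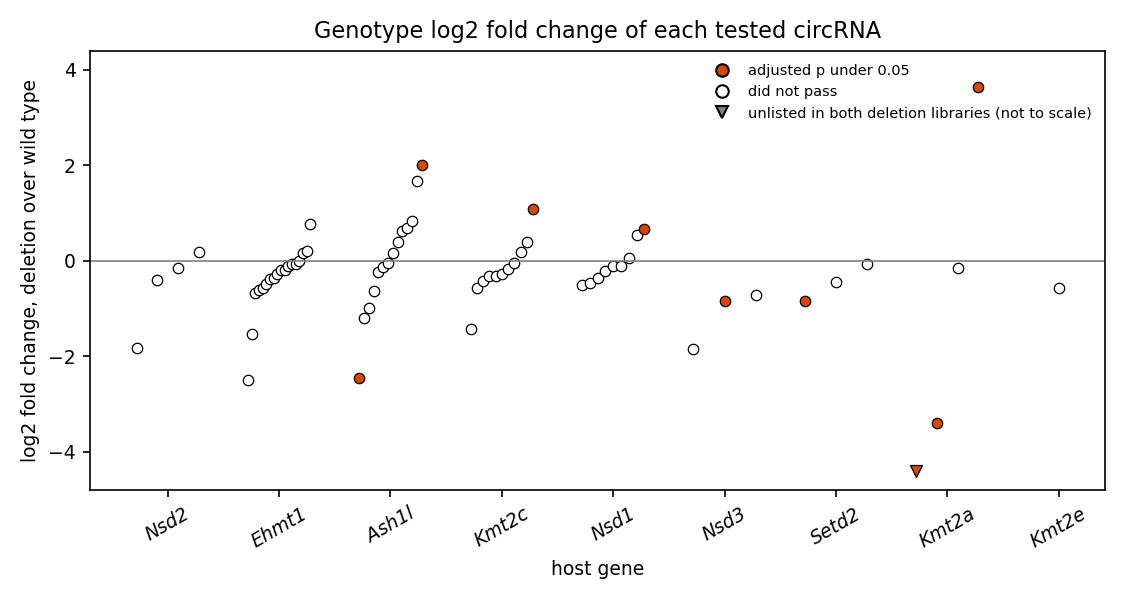
Genotype log2 difference (deletion against wild type) of the 67 tested circles by host, with the 9 that passed the test marked. Kmt2a and Ash1l each hold circles on both sides of 0, and the 18 tested circles of Ehmt1 and 4 of Nsd2 hold none that passed.

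Among the H3K4 writers, Kmt2a (gene identifier 214162; chromosome 9, minus strand) held circles that moved in opposite directions. A circle from 44809715 to 44816659, exon class, with a span of 6945 bases, held 11 and 6 reads in the wild-type libraries, against 44 and 53 with the deletion. Both deletion libraries were far above both wild-type libraries although they are the shallower ones. The ratio of scaled reads was 8.84 at P12 (exact 95% interval 4.49 to 19.0) and 19.7 at P13 (8.47 to 56.0). In edgeR the log2 difference was 3.64 ± 0.41 (SE), with an adjusted p of 1.5e-05. It was the single circle of the set that also passed as higher on the SRPBM scale (log2 difference 2.20, adjusted p in edgeR 0.00773), and DESeq2 called it too.

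A pair of Kmt2a circles fell. The circle from 44824325 to 44826959 (2635 bases) held 53 and 63 wild-type reads, was unlisted in deletion P12 and had 5 reads in deletion P13. With 3 reads as the floor of an unlisted library, its level at P12 was at least 7.99-fold lower, and its ratio at P13 was 0.177 (0.0555 to 0.435). Its edgeR log2 difference was -3.40 ± 0.66 (adjusted p 0.00349), whereas DESeq2 gave an adjusted p of 0.254. The circle from 44828784 to 44831397 (2614 bases) held 26 and 29 wild-type reads and was unlisted in both deletion libraries (edgeR adjusted p 0.00352, none given by DESeq2). The same floor makes it at least 3.92-fold lower (P12) and at least 4.34-fold lower (P13). Such a floor ignores how precisely the wild-type reads were counted, and the exact 95% limits reach lower, to 6.28-fold for the 2635-base circle and to 2.97-fold and 3.31-fold for the 2614-base circle. Without wild type P12 or without wild type P13, these circles no longer had 10 reads in the required number of libraries and could not be tested. Both entered the test through the wild-type libraries alone, where they are high, so that their p-values lend no support to the difference.

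The leading Kmt2a circle, from 44828784 to 44829271 (488 bases), starts from the same donor as the last one. It had 84, 75, 31 and 33 reads, and its log2 difference was -0.16 ± 0.27 (edgeR adjusted p 0.796). As a share of all Kmt2a junction reads it was 42.4%, 38.3%, 39.2% and 36.3%. The 6945-base circle rose in share from 5.56% (exact binomial 95% interval 2.81 to 9.72) and 3.06% (1.13 to 6.54) in wild type to 55.7% (44.1 to 66.9) and 58.2% (47.4 to 68.5) in the deletion. The 2635-base circle went from 26.8% and 32.1% to 0% (up to 4.56%) and 5.49% (1.81 to 12.4). Summed over its circles, Kmt2a did not pass the test: 198, 196, 79 and 91 reads gave a log2 difference of 0.01 ± 0.21 (edgeR adjusted p 0.989). Of its 10 circles, 8 were listed in each wild-type library and 3 in each deletion library. Over the whole series 28563, 31208, 18022 and 20129 circRNAs were listed, and the deletion libraries are the shallower ones. Fewer listed circles are therefore not read as a loss.

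**Figure D3:**
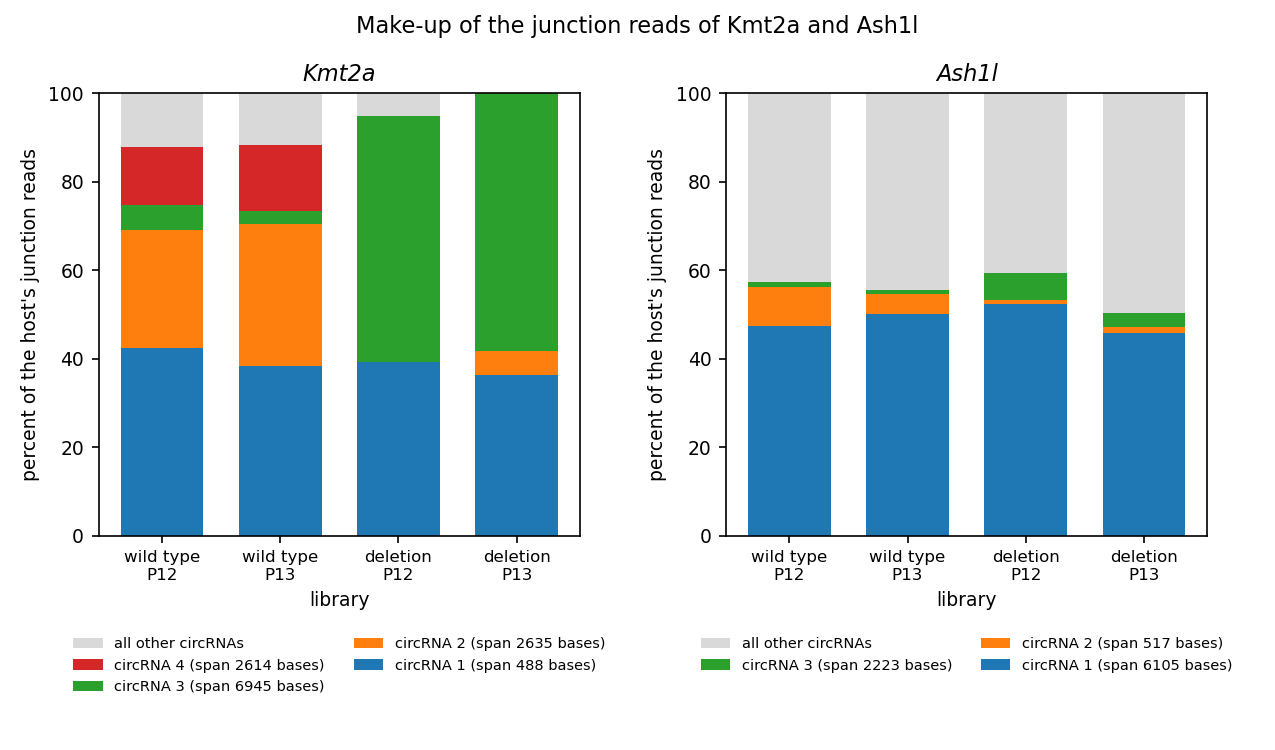
Share of each circle in the junction reads of Kmt2a and of Ash1l (percent, stacked bars, 1 bar per library). In Kmt2a the 6945-base circle takes 5.56% and 3.06% in wild type, against 55.7% and 58.2% in the deletion, while the 488-base circle stays between 36.3% and 42.4%.

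The deposited junction ratio compares the back-spliced reads of a circle with the other reads at the same splice sites, within 1 library, and does not depend on library scaling. It is 2 times the junction reads over that number plus the non-junction reads. For the 6945-base Kmt2a circle it was 0.333 and 0.25 in wild type, against 0.907 and 0.906 in the deletion. The non-junction reads at its sites numbered 44, 36, 9 and 11. These counts are unscaled and small in the deletion libraries, which are also the shallower ones. Linear RNA had been depleted before sequencing, so that non-junction reads are those left after it. Whether the depletion was alike in every library was not tested, and all junction ratios here share this limit. For the 2635-base circle the ratio was 0.679 and 0.746 in wild type and 0.312 in deletion P13. The leading circle had 0.771, 0.667, 0.729 and 0.93, with overlapping genotypes.

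Kmt2c (gene identifier 231051; chromosome 5, minus strand) had more circular reads in sum in the deletion, and this sum includes its leading circle. Of its 11 tested circles, only the leading one passed the genotype test. That circle, from 25347361 to 25349940 (2580 bases, exon class), had 213, 193, 204 and 185 reads, or 165, 132, 349 and 281 scaled reads. The ratio was 2.12 at P12 (1.74 to 2.58) and 2.14 at P13 (1.74 to 2.63). Its edgeR log2 difference was 1.09 ± 0.16 (adjusted p 3.63e-04), and DESeq2 gave an adjusted p of 1.58e-04. On the SRPBM scale the difference was -0.37. It made up 35.1% and 32.1% of the Kmt2c reads in wild type, against 56.5% and 55.2% in the deletion, and its junction ratio was 0.583, 0.52, 0.712 and 0.668, with no overlap of the genotypes.

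The Kmt2c host sum of 606, 602, 361 and 335 reads rose by a log2 difference of 0.43 ± 0.13 (edgeR adjusted p 0.0110). The leading circle, with its larger share in the deletion, is counted in it, and the sum of the other Kmt2c circles was not tested. The ratio was 1.32 at P12 (1.15 to 1.5) and 1.24 at P13 (1.08 to 1.42). This call was lost with genotype as the only term (adjusted p in edgeR 0.0576) and in DESeq2 (0.0772). It was also lost without wild type P12 (log2 difference 0.48), without wild type P13 (0.28) and without deletion P12 (0.27). Those fits also had genotype as the only term, so that a loss there is not put down to the library left out. On the SRPBM scale the host sum was lower in the deletion, at -1.11. Of the 9 member hosts tested as sums, 1 was higher and 1 lower, beside 7.8% higher and 6.47% lower over all 3896 hosts tested. DESeq2 called 0 of the 9 (1 higher and 1 lower at an unadjusted p under 0.05), beside 3.03% and 1.87% over all.

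Kmt2e (gene identifier 69188; chromosome 5, plus strand) was thinly read. Its leading circle, from 23482402 to 23486400, had 21, 28, 5 and 10 reads and a log2 difference of -0.58 ± 0.55 (edgeR adjusted p 0.618). It was the single Kmt2e circle that could be tested. The host sum of 62, 112, 29 and 37 reads gave -0.14 ± 0.32 (edgeR adjusted p 0.835).

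Among the H3K36 writers, Ash1l (gene identifier 192195; chromosome 3, plus strand) also held opposing circles, at lower shares than in Kmt2a. The circle from 88965812 to 88966328 (517 bases) held 78 and 48 wild-type reads, against 4 and 6 with the deletion. It was 8.82-fold lower at P12 (3.31 to 33.2) and 3.59-fold lower at P13 (1.53 to 10.3), and the edgeR log2 difference was -2.46 ± 0.48 (adjusted p 0.00323). DESeq2 gave an adjusted p of 0.0237. Without either wild-type library it could not be tested, because 1 library with at least 10 reads remained. It too entered the test through wild type alone, and its p-values lend no support to the difference. Its share of the Ash1l reads went from 8.77% (7.00 to 10.8) and 4.39% (3.25 to 5.78) to 1.03% (0.280 to 2.61) and 1.26% (0.465 to 2.73), and its junction ratio from 0.817 and 0.722 to 0.276 and 0.286.

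The circle from 89033259 to 89035481 (2223 bases) held 11 and 10 wild-type reads, against 24 and 15 with the deletion. Its edgeR log2 difference was 2.01 ± 0.51 (adjusted p 0.0180), and the ratios were 4.82 at P12 (2.27 to 10.9) and 3.34 at P13 (1.40 to 8.32). The call was lost without wild type P13 (1.74) and without deletion P12 (1.58), in fits that also had genotype as the only term. DESeq2 gave no adjusted p for this circle. Its SRPBM-scale difference was 0.56 and did not pass (adjusted p in edgeR 0.351). The junction ratio of this circle was 0.149, 0.098, 0.414 and 0.297. Another circle from the same acceptor, 89033259 to 89052097, had 26, 16, 3 and 5 reads and did not pass (-1.20, edgeR adjusted p 0.380).

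The leading Ash1l circle, 89001773 to 89007877 (6105 bases), had 421, 549, 204 and 218 reads and a log2 difference of -0.04 ± 0.15 (edgeR adjusted p 0.915). It held between 45.9% and 52.3% of the Ash1l reads in each library, and its junction ratio lay between 0.874 and 0.916. Of the 14 tested Ash1l circles, 1 rose, 1 fell and 12 did not pass. The host sum of 889, 1094, 390 and 475 reads gave 0.03 ± 0.12 (edgeR adjusted p 0.930), so that a sum over the host does not show the opposing circles.

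Nsd1 (gene identifier 18193; chromosome 13, plus strand) had its leading circle, 55233895 to 55248077 (14183 bases), higher in the deletion. It had 201, 283, 146 and 197 reads, or 156, 193, 250 and 300 scaled reads, and the edgeR log2 difference was 0.66 ± 0.17 (adjusted p 0.0173). The call was lost with genotype as the only term (adjusted p in edgeR 0.0510) and in DESeq2 (0.0597). It was also lost without wild type P12 (log2 difference 0.38), without wild type P13 (0.68) and without deletion P13 (0.53). Those fits also had genotype as the only term, so that a loss there is not put down to the library left out. On the SRPBM scale the circle was lower, at -0.81 (adjusted p in edgeR 0.0118). It held 36.9% and 44.0% of the Nsd1 reads in wild type, against 55.5% and 55.7% in the deletion. Its junction ratio was 0.607 in wild type P12 and between 0.715 and 0.728 in the other libraries. The Nsd1 host sum of 545, 643, 263 and 354 reads did not pass (0.27 ± 0.13, edgeR adjusted p 0.187).

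Nsd2 (gene identifier 107823; chromosome 5, plus strand), the most abundant host of the set, varied little. Its leading circle had 1124, 1121, 426 and 485 reads and a log2 difference of -0.15 ± 0.12 (edgeR adjusted p 0.544). The junction ratio of that circle was 0.796, 0.8, 0.787 and 0.791, the narrowest range among the leading circles. The host sum of 1378, 1437, 531 and 578 reads gave -0.12 ± 0.11 (edgeR adjusted p 0.554).

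Nsd3 (gene identifier 234135; chromosome 8, plus strand) was the host whose sum fell. It had 266, 264, 51 and 76 reads, and the ratio of scaled reads was 0.424 at P12 (0.308 to 0.574) and 0.642 at P13 (0.490 to 0.831). The edgeR log2 difference was -0.85 ± 0.21 (adjusted p 0.00133). DESeq2 gave an adjusted p of 0.0639. The edgeR call was lost without wild type P12 (log2 difference -0.80), in a fit that also had genotype as the only term. Its leading circle, 25659741 to 25666156 (6416 bases), had 175, 173, 33 and 55 reads and fell by 0.85 ± 0.24 on the log2 scale (edgeR adjusted p 0.0328). That call was lost with genotype as the only term (adjusted p in edgeR 0.0597) and in DESeq2 (0.181). It was also lost without wild type P12 (-0.87) and without deletion P12 (-0.59), in fits that again had genotype as the only term. The junction ratio of this circle was 0.837 and 0.781 in wild type, against 0.695 and 0.753 in the deletion.

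Setd2 (gene identifier 235626; chromosome 9, plus strand) had 1 circle that fell. The circle from 110573612 to 110574274 (663 bases) held 122 and 124 wild-type reads, against 27 and 35 with the deletion, or 94.4, 84.6, 46.2 and 53.2 scaled reads. The edgeR log2 difference was -0.84 ± 0.25 (adjusted p 0.0476), just inside the threshold of 0.05. The call was lost without wild type P12 (log2 difference -0.89), without deletion P12 (-0.74) and without deletion P13 (-0.94), in fits that also had genotype as the only term. Over all 4 libraries it was lost with genotype as the only term (adjusted p in edgeR 0.0637), without the count filter (0.126) and in DESeq2 (0.305). Its share of the Setd2 reads was 53.0% and 52.8% in wild type, against 34.2% and 36.1% in the deletion, and its junction ratio was 0.755, 0.805, 0.607 and 0.667. The host sum of 230, 235, 79 and 97 reads did not pass (-0.18 ± 0.20, edgeR adjusted p 0.650).

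Ehmt1 (gene identifier 77683; chromosome 2, minus strand), the H3K9 writer, gave the most kinds of circle, and none of its 18 tested circles passed in edgeR. At an unadjusted p under 0.05 there were 1 higher (24847944 to 24877626; adjusted p 0.134) and 1 lower (24856606 to 24884702; adjusted p 0.164). The leading circle, 24813527 to 24825067 (11541 bases), had 230, 256, 128 and 117 reads and a log2 difference of 0.16 ± 0.18 (edgeR adjusted p 0.665). Its junction ratio was 0.752, 0.74, 0.783 and 0.736, with overlapping genotypes. The host sum of 1103, 1149, 441 and 456 reads gave -0.11 ± 0.12 (edgeR adjusted p 0.638).

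Setd3 (gene identifier 52690; chromosome 12, minus strand) gave a single circle, 108157754 to 108167395, of the intron class. It had 7, 18, 6 and 8 reads and was not tested. Its junction ratio was 0.067, 0.145, 0.136 and 0.178, so that most reads at its sites were not back-spliced.

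**Figure D4:**
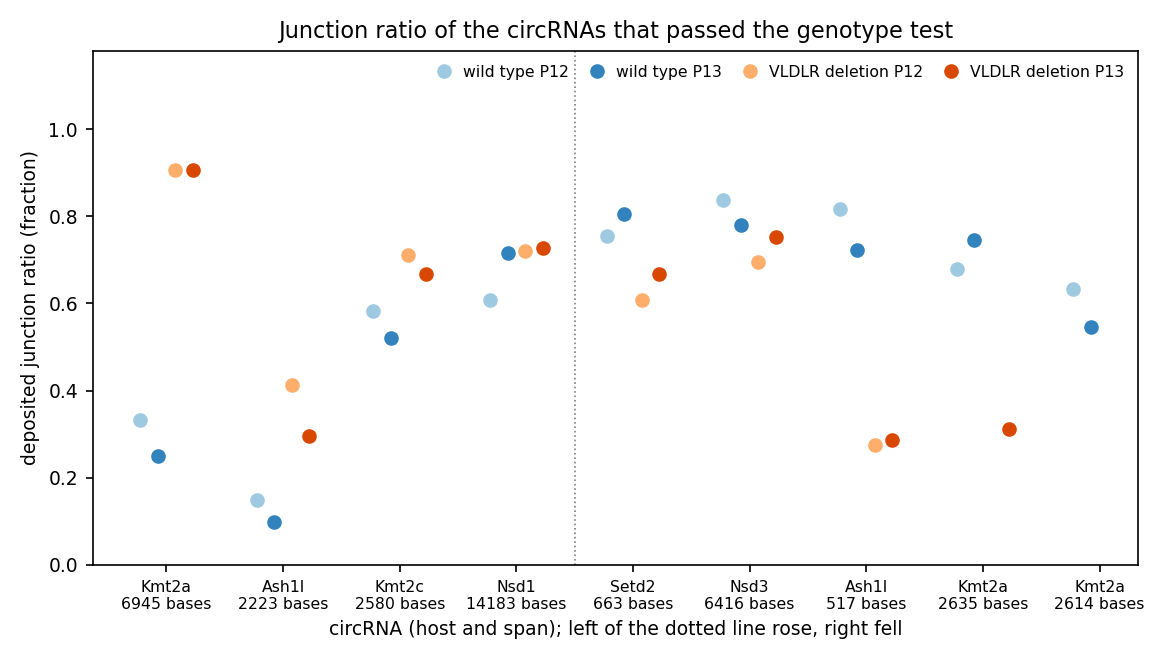
Deposited junction ratio (fraction) of the 9 circles that passed the genotype test, 1 point per library and no point where a circle was unlisted. The 6945-base Kmt2a circle stands at 0.333 and 0.25 in wild type, against 0.907 and 0.906 in the deletion, and the 517-base Ash1l circle goes the other way, from 0.817 and 0.722 to 0.276 and 0.286.

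In the 18 circles that reached 20 reads in every library, junction ratios had medians of 0.575, 0.537, 0.573 and 0.601. Over all 2193 such circRNAs the medians were 0.624, 0.634, 0.629 and 0.627. Taken circle by circle as deletion minus wild type, the median difference was -0.027 (P12) and -0.0185 (P13), beside 0.008 and 0.002 over all, small against the shifts of the Kmt2a and Ash1l circles that passed.

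Single libraries were also compared in pairs, over circles with at least 20 reads in the pair. A circle was called where the ratio of scaled reads was at least 2 or at most 0.5 and its exact 95% interval excluded 1, which covers counting error only and gives no test of the condition. For the genotype at P12, 4 of 56 circles were higher and 10 lower, beside 10.9% and 10.6% over all. At P13, 4 of 59 were higher and 4 lower, beside 10.3% and 9.58%. Ranked by how far the interval limit nearest 1 lay from 1, the first 5 were the 3 Kmt2a circles above and the 517-base Ash1l circle at both days, with the 2580-base Kmt2c circle at P13 and an Ehmt1 circle from 24884146 to 24887066 at P12. By the ratio itself other called circles lay farther from 1 than the Kmt2c circle at P13, such as the 2223-base Ash1l circle. The Ehmt1 circle had 26 reads in wild type P12 and was unlisted in deletion P12, at least 3.92-fold lower by the floor (exact limit 2.97).

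The days differed little. In the test of day over both genotypes, edgeR called 0 of the 67 circles, beside 0.0114% in each direction over all, and DESeq2 called 0, beside 0%. At an unadjusted p under 0.05 edgeR gave 1 higher and 2 lower, beside 1.8% and 1.78% over all, and DESeq2 gave 1 higher and 0 lower. The lowest adjusted p of edgeR was 0.999, and log2 differences, P13 against P12, ran from -1.17 to 2.54. Of the 9 host sums edgeR called 0, beside 0.0257% higher and 0.103% lower over all, and 0 had an unadjusted p under 0.05, beside 2.31% and 2.39%. Host differences by day lay between -0.24 and 0.46 on the log2 scale.

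Between single libraries of the 2 days in wild type, 1 of 75 circles was higher and 3 were lower at P13, beside 4.48% and 4.62% over all. In the deletion, 2 of 40 were higher and 0 lower, beside 4% and 4.19%. An Ash1l circle, 89033259 to 89043643, was called higher in both genotypes. In wild type it was unlisted at P12 and had 28 reads at P13 (at least 8.23-fold higher by the floor, exact limit 6.26), and it had 8 and 22 in the deletion (ratio 2.45, 1.05 to 6.35). In the day test its log2 difference of 2.54 did not pass in edgeR (unadjusted p 0.0103, adjusted p 0.999). The fit without deletion P12 held only wild type at P12 and no genotype term. Day and genotype cannot be told apart in it, and no day difference is read from it. The other circle called in the deletion was from Nsd1 (55233895 to 55238862), with 15 and 39 reads (2.31, 1.25 to 4.52).

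The 3 circles called lower at P13 in wild type were from Ehmt1 and Kmt2c. The Ehmt1 circle from 24884146 to 24887066 had 26 and 8 reads (ratio 0.271, 0.106 to 0.617). An Ehmt1 circle from 24836396 to 24858250 had 16 and 7 (0.386, 0.134 to 0.992), and a Kmt2c circle from 25338413 to 25352292 had 20 and 8 (0.353, 0.134 to 0.836). Each had few reads.

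In 3 of these hosts, some circles share a donor and end at acceptors exactly 3 bases apart. The pattern was chosen after its values were seen and is described without a test. Of the 287 circles, 22 (7.67%) had such a partner, against 0.812% of all 44073 circRNAs and 0.890% of the 24039 from hosts with at least 10 circles. All 22 differ at the acceptor and lie in Ehmt1 (12), Kmt2c (8) and Kmt2a (2). Ehmt1 ranked 1 among all hosts by the number of such circles and Kmt2c ranked 4. The other 6 member hosts with at least 10 circles held none. By host, 3 of the 9 members with at least 10 circles held such a pair, beside 4.93% of 1277 such hosts. Circles at the same acceptor pair are counted separately in the shares of circles above.

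The use of the paired acceptors was unequal. In Ehmt1 the acceptor at 24887066 held 71 reads and that at 24887069 held 545, over 3 shared donors, so that the minor one had 11.5% (exact binomial 95% interval 9.11 to 14.3). By library these were 37, 23, 8 and 3 reads against 227, 182, 83 and 53. The Ehmt1 pair at 24863905 and 24863908 had 10 and 190 reads (5%, 2.42 to 9.0), and the Kmt2a pair at 44829268 and 44829271 had 23 and 223 (9.35%, 6.02 to 13.7). In Kmt2c, the pair at 25415023 and 25415026 was the most even, with 135 and 60 reads (30.8% for the minor one, 24.4 to 37.8). The pair at 25349937 and 25349940, which ends the leading Kmt2c circle, had 8 and 795 reads (0.996%, 0.431 to 1.95). The 8 were 3 and 5 reads in deletion P12 and P13, close to the 2 reads needed for listing. The circle was unlisted in wild type, where it can hold 1 read per library, so that no genotype difference is read from it. The sequence at these sites was not analysed here.

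The hosts whose scaled reads followed Kmt2a most closely over the 4 libraries were Dyrk1a, Nol4 and Rnf157, at Euclidean distances of 0.0444, 0.0512 and 0.0588 between centred log2 values. Those closest to Ash1l were Setbp1, Rnf150 and Matr3, at 0.0246, 0.0360 and 0.0371. The search covered 1005 other hosts with at least 400 reads, and 4 libraries leave many hosts with near-flat profiles such as these.

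Other genes of the pathway were listed for comparison. Of 28 other lysine methyltransferases, 18 had circles and 9 could be tested as hosts. Of these edgeR called 0 (unadjusted p under 0.05: 1 higher, 0 lower; 0 in DESeq2), and the median log2 difference was -0.30, beside -0.11 over the 9 member hosts and -0.04 over all hosts. Of 25 circles tested, 1 rose and 0 fell, beside 5.03% and 3.59% over all circRNAs tested. The 1 is a circle of Ezh2, the catalytic subunit of the H3K27 complex PRC2 (chromosome 6, 47576536 to 47577667). It had 778, 750, 452 and 498 reads (0.46 ± 0.13, edgeR adjusted p 0.0309, DESeq2 0.0225). Its SRPBM-scale value was -0.998.

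Of 13 partners of the COMPASS complexes, 6 had circles and 5 were tested, and edgeR called 2 lower, beside 6.47% over all hosts; DESeq2 called 1 of them. Ash2l, a core subunit that KMT2 enzymes need for activity, had 85, 76, 5 and 19 reads (-1.58 ± 0.42, edgeR adjusted p 0.00312, none given by DESeq2). Paxip1, which encodes the PTIP subunit of the KMT2C and KMT2D complexes, had 95, 120, 15 and 14 (-1.66 ± 0.36, edgeR adjusted p 1.56e-04, DESeq2 0.0289). Both deletion libraries were below both wild-type libraries for each. The median of the 5 was -0.30.

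Of 9 PRC2 subunits, 7 had circles and edgeR called 0 of the 6 tested as hosts (unadjusted p under 0.05: 0 higher, 1 lower; 0 in DESeq2). Their median was -0.09. Of 15 single circles tested, 2 rose and 1 fell, beside 5.03% and 3.59% over all circRNAs tested. Eed, which binds the mark that PRC2 makes, held 1 of each. The Eed circle from 89955531 to 89962361 had 102, 130, 78 and 91 reads (0.70 ± 0.21, edgeR adjusted p 0.0451, DESeq2 0.249), and that from 89969571 to 89972323 had 35, 31, 4 and 3 (-2.07 ± 0.59, edgeR adjusted p 0.0372, none given by DESeq2). The latter reached 10 reads in wild type only. The first was at -0.76 on the SRPBM scale.

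Of 18 readers and partners of the marks, 13 had circles and 8 were tested. Of these edgeR called 1 higher and 2 lower, beside 7.8% and 6.47% over all hosts, and the median was -0.13; DESeq2 called the 1 higher and neither of the lower ones. Phf20, a reader found in an acetyltransferase complex, had 180, 212, 195 and 175 reads and rose by a log2 difference of 1.14 ± 0.18 (edgeR adjusted p 6.71e-09). On the SRPBM scale it was at -0.39. Bptf, which reads methylated H3K4 for the NURF remodelling complex, had 328, 290, 83 and 79 reads (-0.71 ± 0.20, edgeR adjusted p 0.00412, DESeq2 0.0838). Brpf3, a scaffold of acetyltransferase complexes, had 119, 135, 23 and 30 (-1.04 ± 0.30, edgeR adjusted p 0.00663, DESeq2 0.152). In the test of day, edgeR called 0 hosts in any of these lists.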

How the data were processed

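CircRNA sequencing of ribosome- and linear-RNA-depleted total RNA gave 4 libraries. The authors deposited counts of junction and non-junction reads, with the junction ratio as a fraction, in CIRI's column layout per the file headers. They also deposited SRPBM, a signal equal to the junction count divided by a constant per library. The meaning of that constant, like the genome build, was not given in the sources used here. The submitters' processing notes name BWA and DESeq2 without roles. Host identifiers were matched to RefSeq names (GRCm38.p6, names only; 99.83% to 99.85% matched per library).

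Counts were tested with edgeR 4.0.16 (TMM, robust quasi-likelihood, genotype and day additive, at least 10 reads in at least 2 libraries, Benjamini-Hochberg at 0.05 over all features) and, as an alternative, DESeq2 1.42.0. The code was tested on simulated data. Host sums used circRNAs with 1 matched host. Each SE given after ± was derived from the edgeR test, as the absolute log2 difference divided by the square root of its F statistic. Ratios carry Clopper-Pearson 95% intervals, and the reads have no molecular identifiers, so that intervals and floors cover counting error only. Alternatives were another size factor, the SRPBM constants, no count filter, the tested factor alone, exon class only and other read minimums. Each library was also left out, in fits with the tested factor as the only term. The text names each host's most abundant circRNA, circRNAs that passed a test, the 5 called circRNAs per library pair whose interval limit nearest 1 lay farthest from 1, and listed hosts that passed. Unless said otherwise, other circRNAs named were chosen after their values were seen. The members and lists were chosen with earlier results of these data known. Some cell type markers are not reported here.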

Additional observations from a re-analysis of the deposited data

How the results depend on the processing

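The number of member circRNAs higher in the deletion was 4. It was 1 on the SRPBM constants, 2 in DESeq2, 3 with genotype as the only term and between 2 and 3 when 1 library was left out. The number lower was 5. It was 41 on SRPBM, 1 in DESeq2, 3 with genotype as the only term and between 0 and 7 when 1 library was left out. It was 0 without wild type P12, where 2 of the 5 could still be tested. For hosts, the 1 higher (Kmt2c) became 0 on SRPBM, in DESeq2 and with genotype alone, and between 0 and 1 when 1 library was left out. The 1 lower (Nsd3) became 9 on SRPBM, 0 in DESeq2 and between 0 and 1 when 1 library was left out. By day, each fit with 1 library left out held 1 of the days in 1 genotype alone, so that day and genotype could not be told apart. All fits that left out 1 library had the tested factor as the only term, so that they change the model as well. With another size factor method the 4 higher and 5 lower circRNAs were the same ones, and without the count filter 4 and 4 of them were called. The log2 difference of the 6945-base Kmt2a circle lay between 2.20 (SRPBM) and 4.08 (without wild type P12) over the alternatives. All of them reuse the same 4 libraries, and opposing isoforms were among the reasons to examine Kmt2a. These values therefore describe the circle and give no independent support.

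Between single libraries, a minimum of 50 reads gave 2 higher and 5 lower for the genotype at P12, 2 lower at P13, 0 higher and 0 lower by day in wild type and 1 higher by day in the deletion. SRPBM gave 1 higher and 46 lower at P12, 1 higher and 48 lower at P13 and 4 higher by day in wild type. With at least 10 reads in each library (30 circles), the median junction ratio was 0.401, 0.388, 0.3895 and 0.3845.

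Directions reversed on SRPBM for the Nsd1 (-0.81), Kmt2c (-0.37) and leading Ehmt1 circle (-1.30) and for the host sums of Ash1l (-1.51), Kmt2a (-1.53), Kmt2c (-1.11) and Nsd1 (-1.27). Host Kmt2a reversed with the other size factors (-0.0021). When 1 library was left out, differences near 0 changed sign: the leading Ash1l circle ranged from -0.27 to 0.0097, host Ash1l from -0.0777 to 0.0684, host Kmt2a from -0.15 to 0.0579 and host Kmt2e from -0.501 to 0.15. The sign changed without deletion P13 for the Ash1l circle, without wild type P12 or deletion P13 for host Ash1l, without wild type P13 or deletion P13 for host Kmt2a and without wild type P13 for host Kmt2e. The cause was not tested. No paired analysis was possible because each group holds 1 library. A circle unlisted in a deletion library may hold 1 read there, and the deletion libraries are the shallower ones.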
